A study of Mus musculus with 12 samples.

Results

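The genes described here are the cytochrome P450, UDP-glucuronosyltransferase (UGT), glutathione S-transferase (GST) and sulfotransferase (SULT) genes, whose products oxidize or conjugate drugs, steroids and other foreign or signalling molecules. Members were every probe of the array table whose platform gene symbol began with Cyp1 to Cyp4 followed by a letter, or with Ugt1a, Ugt2a, Ugt2b, Ugt3a, Gst or Sult. This gave 202 probes of 129 genes among 45281 probes in all, and 68 of those probes, for 40 genes, rose above the negative control beads (detection p under 0.05) on 3 or more of the 12 arrays and were tested. All counts and values below concern these 68 probes unless another number is given. The rule works on symbols alone, so it also took in Gstcd, a protein named for a GST-like domain, and Cyp4b1-ps2, a pseudogene.

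The arrays were Illumina Mouse WG-6 v2.0 bead chips hybridized with total RNA from PKSV-PCT, an immortalized mouse proximal tubule line. Cells carried human sex hormone-binding globulin (SHBG), a plasma protein that binds androgens, from a CMV-driven construct, either as wild type or as the S42L variant in which the submitters detected no steroid binding. Each line came from limiting dilution and was picked for the SHBG it secreted, so that the variant cannot be told apart from the clone. The 4 groups of 3 arrays were S42L cells with 5α-dihydrotestosterone (DHT), wild-type cells with DHT, S42L cells with testosterone and wild-type cells with testosterone, each androgen at 100 nM for 24 h, and no untreated or SHBG-free group was among them. All groups shared a medium with serum, insulin, dexamethasone, triiodothyronine and EGF, and 3 days in steroid-free medium whose order relative to the androgen the protocol leaves uncertain. DHT arrays lay on chip 1 and testosterone arrays on chip 2, with S42L samples at positions A to C and wild-type samples at D to F of each, so chip and androgen cannot be told apart, whereas an additive chip effect cancels from a difference between variants on the same chip. No label said that the arrays of a group came from separate cultures, and p-values therefore measure only the spread between these arrays, which may be technical.

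Drug metabolism is usually described in phases. P450 enzymes, membrane proteins that need heme and electrons from NADPH, insert oxygen into their substrates. UGTs then attach glucuronic acid, GSTs attach glutathione and SULTs attach sulfate, which makes the products easier to excrete. Androgens and other steroids are themselves substrates of several P450s, of Ugt2b enzymes and of hydroxysteroid sulfotransferases, and the proximal tubule is the main site of such metabolism in kidney. In mice, renal Cyp4a12 and Cyp4b1 are known as androgen-responsive genes.

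Mean array signal before normalization was 560.2 to 707.4 and 17314 to 19204 probes were detected per array, of which 58 to 72 were members. Values below are background-corrected, quantile-normalized log2 signals. Differences are wild type minus S42L unless stated, ± the standard error from a limma fit of all 12 arrays, with p-values adjusted by the Benjamini-Hochberg method over all 19480 tested probes and called under 0.05. Signals of different probes depend on the probe and were not set against each other. The arrays' own replicates correlated at 0.985 to 0.989 in wild-type cells with testosterone and at 0.992 to 0.995 in the other groups.

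Detection differed between the enzyme classes. The GSTs were the class with the highest share of detected probes, 34 of 41 (82.9%), against 13 of 35 UGT probes (37.1%), 5 of 23 SULT probes (21.7%) and 16 of 103 P450 probes (15.5%). Over all members 33.7% of probes were detected by this rule, against 43% of all probes on the table. Most member probes were either clearly present or not seen, with 52 detected on all 12 arrays and 110 on none. All 7 Gsta probes and 10 of 12 Gstm probes were detected, and so were 11 of 19 Ugt1a probes. Among P450s, none of 4 Cyp1 probes, 6 of 69 Cyp2 probes, 2 of 9 Cyp3 probes and 8 of 21 Cyp4 probes were detected. The Ugt3a probes, 3 in all, and the 8 probes of Sult3 to Sult6 also failed the detection rule. A probe not above the negative control beads does not show that the transcript is absent.

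**Figure D1:**
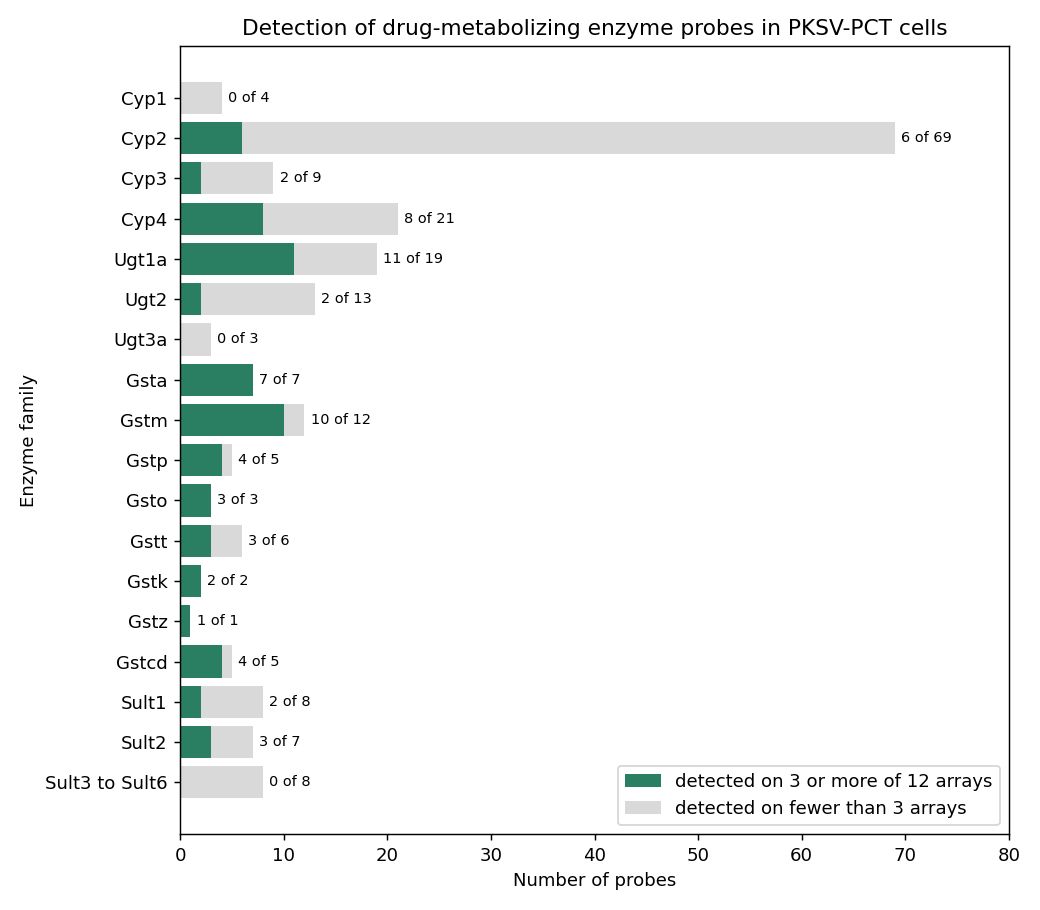
Number of probes per enzyme family, with the horizontal axis in probes and the green bar for those detected on 3 or more of 12 arrays. Green fills the Gsta bar (7 of 7) and little of the Cyp2 bar (6 of 69).

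Several enzymes that are abundant in mouse liver or kidney were not detected. Cyp1a2, which oxidizes aromatic amines in liver, Cyp2c29, Cyp3a11, Cyp4a14, Cyp2e1, the ethanol-inducible P450, and the hydroxysteroid sulfotransferase Sult2a1 were detected on 0 of 12 arrays. Cyp2b10, the usual readout of the receptor CAR, reached detection on 1 array with 1 of its 2 probes, and Ugt2b1 and Cyp2j13 on 1 array each. Of the androgen-linked kidney P450s, Cyp4a12b was detected on all 12 arrays and Cyp4a12a on 9.

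Most of the detected enzymes differed between the lines, and more were lower in wild-type than in S42L cells. Over both androgens, 51 of 68 member probes (75%) were called, 15 higher and 36 lower in wild-type cells, while 37.8% of all tested probes were called, 19.2% higher and 18.6% lower. In genes, taking the brightest probe of each, 8 were higher, 26 lower and 6 not called. The median member difference was -0.35, against 0.02 over all tested probes. The even split of the background rests on quantile normalization: with median scaling 11 members were higher and 39 lower, against 10.3% higher and 23.9% lower among all tested probes (34.2% called). A probe that passed detection through the brighter line alone was favoured to differ, although not all such probes were called (Cyp2d26 and Ugt2b35 were not). Among 59 member probes of 36 genes detected on at least 3 arrays of each line, 47 (79.7%) were called, 15 higher and 32 lower, against 41.4% of all such probes (21.7% higher and 19.6% lower). At 2-fold or more, 1 member probe was higher (background 0.955%) and 8 were lower (background 1.88%), or 7 of those detected in each line. The median half-width of the 95% interval of a member's difference was 0.22, so differences much smaller than that could not be resolved with this number of arrays.

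**Figure D2:**
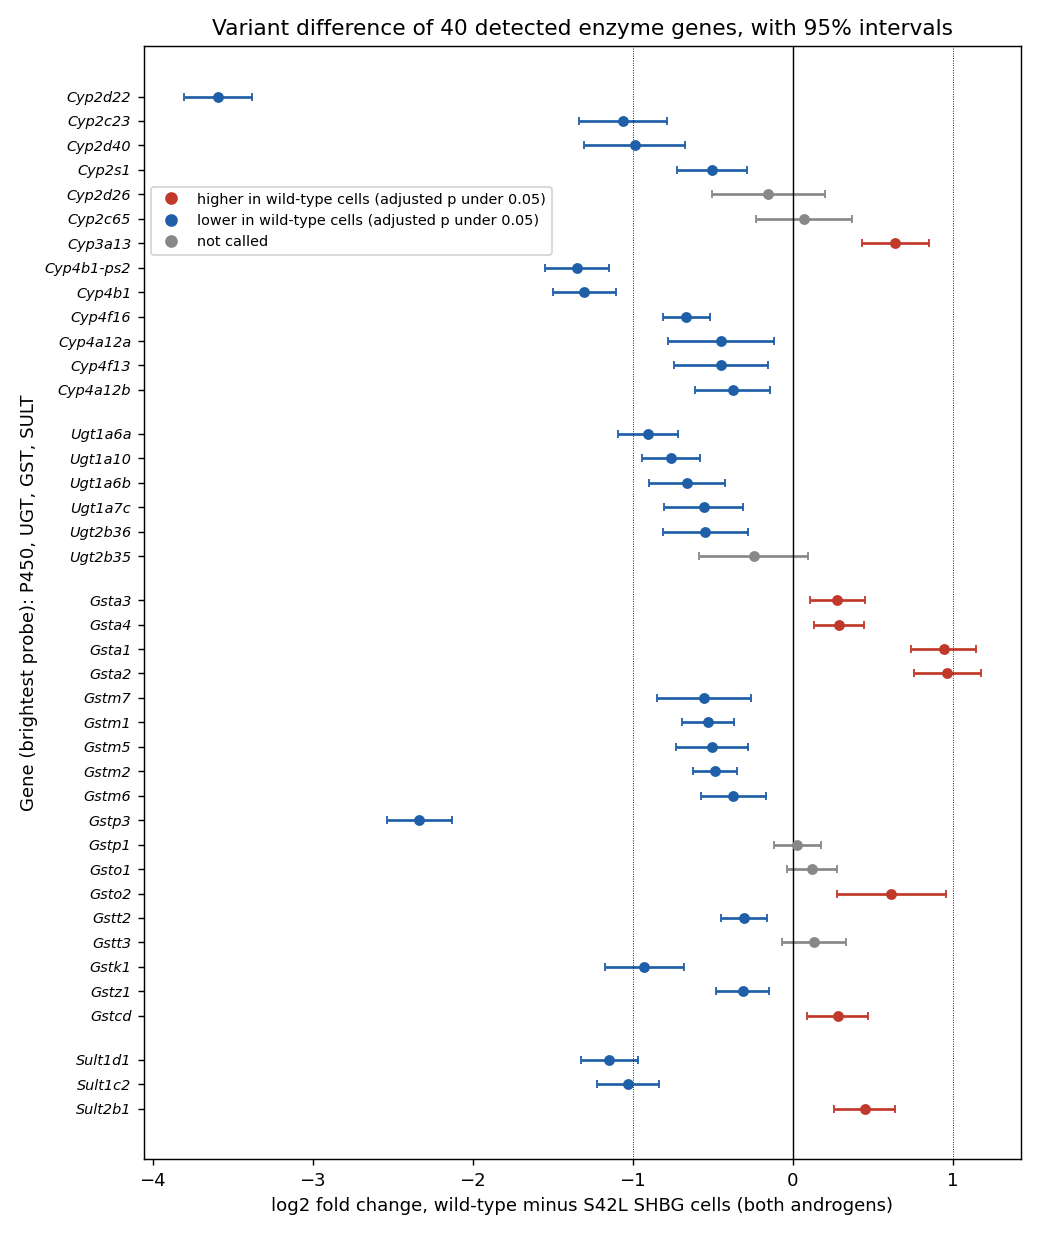
Log2 difference, wild type minus S42L over both androgens, for the brightest detected probe of each of 40 genes, with 95% intervals as bars and dotted lines at 2-fold. Cyp2d22 and Gstp3 lie far to the left, the Gsta genes lie to the right, and the Cyp2d40 point is the fitted value of a probe that no wild-type array detected.

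The P450s were largely lower in wild-type cells. Of 16 detected P450 probes 11 were lower, 2 higher and 3 not called, and of 13 detected in each line 10 were lower and 2 higher. Of all tested probes 18.6% were lower and 19.2% higher, and of all those detected in each line 19.6% and 21.7%. The largest difference of any member was in Cyp2d22, a mouse member of the subfamily that in humans oxidizes many antidepressants and opioids. Its log2 signal was 9.79, 9.93 and 9.83 in S42L cells with DHT and 9.71, 9.49 and 9.82 with testosterone, against 6.12, 5.81 and 6.28 (DHT) and 6.19, 6.16 and 6.45 (testosterone) in wild-type cells. All 6 wild-type arrays lay far below all 6 S42L arrays, and the androgens did not separate within either line. The difference was -3.59 ± 0.10, adjusted p = 1.05e-10, and it was -3.78 under DHT and -3.41 under testosterone. Cyp2d40, of the same subfamily, was detected on 6 arrays, all of S42L cells, and was at least 1.49-fold lower in wild-type cells. It was tested only because S42L cells passed the detection rule, so its call adds no support. That bound sets the S42L mean against, for each wild-type array, the higher of the probe's own signal and the lowest signal of any detected probe. Cyp2d26, detected on 4 arrays, was not called (-0.15 ± 0.16, adjusted p = 0.499). It was called without wild-type testosterone replicate 1 (-0.32, adjusted p = 0.0372). That array was the only wild-type one to detect Cyp2d26, so this call rests on detection in S42L cells and adds no support.

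Cyp2c23, an arachidonic acid epoxygenase of kidney, was also lower in wild-type cells. S42L arrays read 6.62, 6.98 and 6.77 with DHT and 7.10, 7.30 and 7.36 with testosterone, and wild-type arrays read 5.57, 6.29 and 5.53 with DHT and 6.10, 6.12 and 6.14 with testosterone. The lines did not overlap, and the wild-type DHT arrays were the most spread. The difference was -1.06 ± 0.13, adjusted p = 3.78e-05. Cyp2s1, an epithelial P450 found outside the liver, differed by -0.51 ± 0.10, adjusted p = 0.00174, but its wild-type testosterone arrays (9.34, 8.90 and 8.68) reached into the range of the S42L ones (9.37, 9.28 and 9.47), and under that androgen alone it was not called (adjusted p = 0.0629). Cyp2c65, at the edge of detection, gave 0.07 ± 0.14, adjusted p = 0.74.

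The Cyp4 enzymes hydroxylate the far end of fatty acids and eicosanoids. Of their 8 detected probes 7 were lower in wild-type cells, with a median of -0.51, against 18.6% lower among all tested probes. Cyp4b1, which also activates furan toxins such as ipomeanol, read 7.95, 8.11 and 8.36 in S42L cells with DHT, 8.18, 8.38 and 8.41 with testosterone, 6.67, 6.70 and 6.99 in wild-type cells with DHT and 7.01, 7.15 and 7.04 with testosterone. Every wild-type array was below every S42L array, at -1.30 ± 0.09, adjusted p = 5.54e-07. The probe named for its pseudogene Cyp4b1-ps2 moved alike (-1.35 ± 0.09, adjusted p = 3.99e-07), and whether this probe also reads Cyp4b1 RNA was not tested, because no probe sequences were used. Cyp4a12a and Cyp4a12b, which make hydroxylated arachidonic acid in mouse kidney, differed by -0.45 ± 0.15 (adjusted p = 0.035) and -0.38 ± 0.11 (adjusted p = 0.015). The Cyp4a12a call was lost without S42L DHT replicate 1 or 2, wild-type DHT replicate 1 or 2, S42L testosterone replicate 1 or 3, or wild-type testosterone replicate 1 (adjusted p = 0.0606 to 0.0834). Cyp4f13, of a subfamily that inactivates leukotrienes, gave -0.45 ± 0.14, adjusted p = 0.0205, and an adjusted p of 0.0507 without wild-type testosterone replicate 1. The 3 probes of Cyp4f16 did not give the same answer, with -0.67 and -0.58 for the called ones and -0.03 (adjusted p = 0.886) for the remaining one.

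The exception among the P450s was Cyp3a13, a member of the subfamily that oxidizes many drugs and steroids and the only Cyp3 gene detected. Its brighter probe read 5.60, 5.93 and 5.80 in S42L cells with DHT and 5.90, 6.13 and 5.85 with testosterone, against 6.74, 6.51 and 6.58 (DHT) and 6.55, 6.16 and 6.50 (testosterone) in wild-type cells. The wild-type arrays were higher throughout and the lines did not overlap, with a difference of 0.64 ± 0.10, adjusted p = 0.000228. The other probe gave 0.47 ± 0.14, adjusted p = 0.0176.

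All called UGT probes, 11 of 13 detected, were lower in wild-type cells, and so were 8 of 9 that were detected on at least 3 arrays of each line. Among all probes the lower share was 18.6% of those tested and 19.6% of those detected in each line. UGTs of the Ugt1a group glucuronidate phenols and bilirubin and are made from a shared gene locus whose transcripts have separate first exons and common later ones. Of 11 detected Ugt1a probes 10 were lower and 1 was not called, with a median of -0.74, and of 8 detected in each line 7 were lower, with a median of -0.70. Ugt1a10 has 6 detected probes, and the brightest read 13.34, 13.68 and 13.65 in S42L cells with DHT and 13.53, 13.56 and 13.62 with testosterone, against 12.84, 12.70 and 12.82 (DHT) and 12.88, 12.93 and 12.65 (testosterone) in wild-type cells. The lines were clearly apart at -0.76 ± 0.08, adjusted p = 2.04e-05, and the other bright probes gave -0.74 and -0.76. Of the dim Ugt1a10 probes, one was detected on 6 of 6 S42L arrays but on 2 of 6 wild-type arrays, so its fitted difference (-1.01 ± 0.16, adjusted p = 0.000369) rests on wild-type signals mostly not above background. The other dim probes were not detected on any wild-type array, were tested only through S42L cells, and were at least 1.022-fold and 1.129-fold lower there. Ugt1a6a, which prefers planar phenols, read 8.82, 8.94 and 8.86 in S42L cells with DHT, 9.22, 9.27 and 9.01 with testosterone, 7.84, 7.94 and 7.99 in wild-type cells with DHT and 8.47, 8.40 and 8.06 with testosterone. The lines were separate, at -0.90 ± 0.09, adjusted p = 6.61e-06, while its dimmer probe was not called (-0.33, adjusted p = 0.088). The brighter Ugt1a7c probe differed by -0.56 ± 0.11, adjusted p = 0.00205. Ugt1a6b, detected on 3 of 6 wild-type arrays, differed by -0.66 ± 0.11 (adjusted p = 0.000435). That was -1.02 under DHT (adjusted p = 0.000566) and -0.31 under testosterone (adjusted p = 0.173), with an interaction p of 0.00633 unadjusted and 0.906 adjusted. Wild-type cells detected Ugt1a6b on 1 of 3 arrays with DHT and 2 of 3 with testosterone. The DHT value therefore rests on wild-type signals mostly not above background. Which Ugt1a transcript each probe reads could not be settled without probe sequences, so the Ugt1a genes are not independent counts.

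The Ugt2b enzymes glucuronidate androgens and other steroids, and only Ugt2b35 and Ugt2b36 of that group were detected. Ugt2b36 read 5.98, 5.59 and 6.00 in S42L cells with DHT and 5.75, 5.77 and 5.83 in wild-type cells with DHT, then 6.92, 6.72 and 6.56 (S42L) and 5.64, 6.10 and 5.39 (wild type) with testosterone. The S42L testosterone arrays stood above all others, and the DHT groups overlapped. Its difference was -0.07 under DHT (adjusted p = 0.818) and -1.02 under testosterone (adjusted p = 0.00118). The test of that contrast between androgens gave 0.95 ± 0.25 with an unadjusted p of 0.00209 but an adjusted p of 0.71, the lowest of any member. Ugt2b35 was not called (-0.24 ± 0.16, adjusted p = 0.249).

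The GSTs went in both directions: all 7 Gsta probes were higher, and 7 of 10 Gstm probes, both Gstk1 probes and the Gstp3 probe were lower in wild-type cells. Against 19.2% higher and 18.6% lower among all tested probes, 10 of 34 detected GST probes were higher, 12 lower and 12 not called. Their median was 0.08, and -0.01 with median scaling in place of quantile normalization, so that the class as a whole had no settled direction. GSTs are soluble enzymes that join glutathione to reactive molecules, and the alpha class also reduces lipid peroxides.

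All 7 Gsta probes, for 4 genes, were called higher in wild-type cells (5 of 7 with median scaling), with a median of 0.88. Of all tested probes 19.2% were called higher, and 10.3% with median scaling. Gsta1, by the probe with the largest difference, read 11.62, 11.23 and 11.57 in S42L cells with DHT and 11.22, 11.45 and 11.35 with testosterone, against 12.54, 12.61 and 12.59 (DHT) and 12.51, 12.50 and 12.28 (testosterone) in wild-type cells. The lines did not overlap, and this was the only member probe higher by 2-fold or more (1.10 ± 0.09, adjusted p = 1.42e-06). Its other probes gave 0.88 and 0.94. Gsta2 read 11.49, 11.05 and 11.34 (DHT) and 11.60, 11.31 and 11.37 (testosterone) in S42L cells, and 12.38, 12.41 and 12.42 (DHT) and 12.32, 12.38 and 12.05 (testosterone) in wild-type cells. This was again a complete separation of the lines, at 0.97 ± 0.10, adjusted p = 8.93e-06. Gsta1 and Gsta2 are close relatives, and how much of the signal their probes share was not tested. Gsta3 (brighter probe 0.28 ± 0.08, adjusted p = 0.015) and Gsta4, which conjugates the lipid aldehyde hydroxynonenal (0.29 ± 0.07, adjusted p = 0.00763), differed less, and Gsta3 was no longer called with median scaling (adjusted p = 0.0789).

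The Gstm enzymes were lower in 7 of 10 detected probes (against 18.6% of all tested probes) and higher in none (against 19.2%), with a median of -0.47. Gstm2 had the brightest of these probes, at 13.74, 13.82 and 13.73 (DHT) and 14.01, 13.86 and 13.96 (testosterone) in S42L cells against 13.32, 13.34 and 13.37 (DHT) and 13.37, 13.34 and 13.47 (testosterone) in wild-type cells. The lines did not overlap, and the difference was -0.49 ± 0.06, adjusted p = 8.57e-05. Gstm1 (-0.53 ± 0.07, adjusted p = 0.000134), Gstm5 (-0.51 ± 0.10, adjusted p = 0.00215) and Gstm7 (-0.56 ± 0.13, adjusted p = 0.00601) also differed, and 1 of 3 Gstm6 probes did (-0.37 ± 0.09, adjusted p = 0.00728). A dim Gstm1 probe, detected on 10 arrays, gave 0.14 (adjusted p = 0.529) and did not follow the bright one, and the mean of both probes was not called (-0.20, adjusted p = 0.114).

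The tested genes of the pi class did not move alike. Gstp1, the main pi GST of many epithelia, did not pass the test, whereas its neighbour in the family Gstp3 was the member with the second largest difference. Gstp3 read 10.76, 10.66 and 10.52 in S42L cells with DHT and 10.37, 10.57 and 10.44 with testosterone, but 7.93, 8.25 and 8.28 (DHT) and 8.48, 8.29 and 8.09 (testosterone) in wild-type cells. Wild-type arrays lay well below all S42L arrays, at -2.33 ± 0.09, adjusted p = 3.74e-09. Gstp1 read 14.03, 13.81 and 14.00 (DHT) and 13.85, 13.88 and 13.94 (testosterone) in S42L cells and 13.88, 14.04 and 13.99 (DHT) and 13.94, 13.89 and 13.92 (testosterone) in wild-type cells. These ranges overlapped, and the 95% interval of the difference ran from -0.12 to 0.17 (adjusted p = 0.796).

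Promoter sequence is shown for Gsta1, Gsta2 and Gsta3, which were all higher, and for Gstp1 and Gstp3, which diverged. Each line gives the 250 bases before the RefSeq gene start in GRCm38.p6, on the strand of the gene. Capitals mark matches, on either strand, to the antioxidant response element core TGACNNNGC bound by NRF2, the xenobiotic response element core GCGTG bound by the aryl hydrocarbon receptor, or the steroid receptor core AGAACA. The windows are Gsta1 at chr9:78230419-78230668 on the plus strand, Gsta2 at chr9:78347146-78347395 on the minus strand, Gsta3 at chr1:21240335-21240584 on the plus strand, Gstp1 at chr19:4037913-4038162 on the minus strand and Gstp3 at chr19:4059448-4059697 on the minus strand.
Gsta1: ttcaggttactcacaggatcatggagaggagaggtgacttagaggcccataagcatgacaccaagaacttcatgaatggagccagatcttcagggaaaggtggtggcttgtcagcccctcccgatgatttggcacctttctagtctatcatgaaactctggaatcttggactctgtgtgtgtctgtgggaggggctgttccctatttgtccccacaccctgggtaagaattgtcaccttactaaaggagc
Gsta2: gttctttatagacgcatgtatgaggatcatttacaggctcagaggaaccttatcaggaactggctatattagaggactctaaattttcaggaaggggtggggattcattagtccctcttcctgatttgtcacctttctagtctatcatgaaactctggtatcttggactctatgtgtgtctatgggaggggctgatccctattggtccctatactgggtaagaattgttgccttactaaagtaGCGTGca
Gsta3: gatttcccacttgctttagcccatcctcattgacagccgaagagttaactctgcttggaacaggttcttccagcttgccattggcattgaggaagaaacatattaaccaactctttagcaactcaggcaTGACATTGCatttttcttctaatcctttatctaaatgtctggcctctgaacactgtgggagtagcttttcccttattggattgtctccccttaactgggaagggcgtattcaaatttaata
Gstp1: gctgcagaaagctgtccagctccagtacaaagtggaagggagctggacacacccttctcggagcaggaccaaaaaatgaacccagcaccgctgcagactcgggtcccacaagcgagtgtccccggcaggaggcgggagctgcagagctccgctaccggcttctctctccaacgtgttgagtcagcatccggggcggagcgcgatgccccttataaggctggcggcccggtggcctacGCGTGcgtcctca
Gstp3: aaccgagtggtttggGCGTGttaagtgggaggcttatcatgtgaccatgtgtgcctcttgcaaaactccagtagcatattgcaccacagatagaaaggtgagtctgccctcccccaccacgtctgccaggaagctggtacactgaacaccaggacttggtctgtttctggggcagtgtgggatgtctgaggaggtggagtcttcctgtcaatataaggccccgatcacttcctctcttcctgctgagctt
Counted from the gene start, Gsta3 held TGACATTGC at -121 to -113, and Gsta2, Gstp1 and Gstp3 held GCGTG at -7 to -3, -13 to -9 and -235 to -231. No match lay in the Gsta1 window, although Gsta1 and Gsta2 moved alike and their windows were 70.5% identical in alignment. The Gsta1 and Gsta3 windows were 50.7% identical and those of Gstp1 and Gstp3 47.7%. Over all 32851 windows of this length, 10.2% held TGACNNNGC, 28.2% held GCGTG and 16.1% held AGAACA. Among 41 windows of 32 matched member genes these motifs were in 3, 10 and 10. A match describes letters and does not show binding.

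The remaining GST classes differed in either direction. Gstk1, the kappa GST of mitochondria and peroxisomes, read 10.77, 10.33 and 10.42 in S42L cells with DHT and 10.75, 10.59 and 10.71 with testosterone, against 9.49, 9.56 and 9.63 (DHT) and 9.74, 9.46 and 10.13 (testosterone) in wild-type cells. It was lower in wild-type cells without overlap (-0.93 ± 0.11, adjusted p = 4.85e-05), and its other probe gave -0.91. Gstz1, an isomerase of tyrosine breakdown (-0.31 ± 0.08, adjusted p = 0.00656), and Gstt2 (-0.31 ± 0.07, adjusted p = 0.00294) were modestly lower. Gsto2, which reduces dehydroascorbate, was higher by its brighter probe (0.62 ± 0.16, adjusted p = 0.00823) but not by the other (0.36, adjusted p = 0.0598). Gsto1 (0.12, 95% interval -0.03 to 0.27) and Gstt3 (0.13, 95% interval -0.07 to 0.33) were not called. Of 4 Gstcd probes 2 were higher, the brightest by 0.28 ± 0.09, adjusted p = 0.0231. That call was lost with median scaling (adjusted p = 0.496) and without S42L DHT replicate 2, wild-type DHT replicate 3, S42L testosterone replicate 2 or 3, or wild-type testosterone replicate 1 (adjusted p = 0.0546 to 0.0604).

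The SULTs were split by family, with Sult1 genes lower and Sult2b1 higher in wild-type cells. Sult1d1, which sulfates dopamine and other catechols in mouse kidney, read 9.31, 9.60 and 9.41 in S42L cells with DHT and 10.09, 10.26 and 10.25 with testosterone, and 8.46, 8.29 and 8.47 (DHT) and 9.07, 8.95 and 8.82 (testosterone) in wild-type cells. Wild-type arrays were lower than every S42L array, and within each line the DHT arrays were the lower ones. The variant difference was -1.15 ± 0.08, adjusted p = 5.36e-07. Sult1c2, a phenol sulfotransferase, read 11.98, 12.34 and 12.29 (DHT) and 12.40, 12.34 and 12.35 (testosterone) in S42L cells against 11.06, 11.22 and 11.19 (DHT) and 11.34, 11.16 and 11.55 (testosterone) in wild-type cells. The lines were again separate, at -1.03 ± 0.09, adjusted p = 3.16e-06. Sult2b1, which sulfates cholesterol and pregnenolone, was higher by all 3 probes, at 0.45, 0.57 and 0.56. Its brightest probe read 10.39, 10.03 and 10.09 in S42L cells with DHT and 10.45, 10.83 and 10.72 in wild-type cells with DHT, then 9.98, 10.04 and 10.08 (S42L) and 10.45, 10.39 and 10.44 (wild type) with testosterone. The lines did not overlap under either androgen, and the difference was 0.45 ± 0.09, adjusted p = 0.00155.

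**Figure D3:**
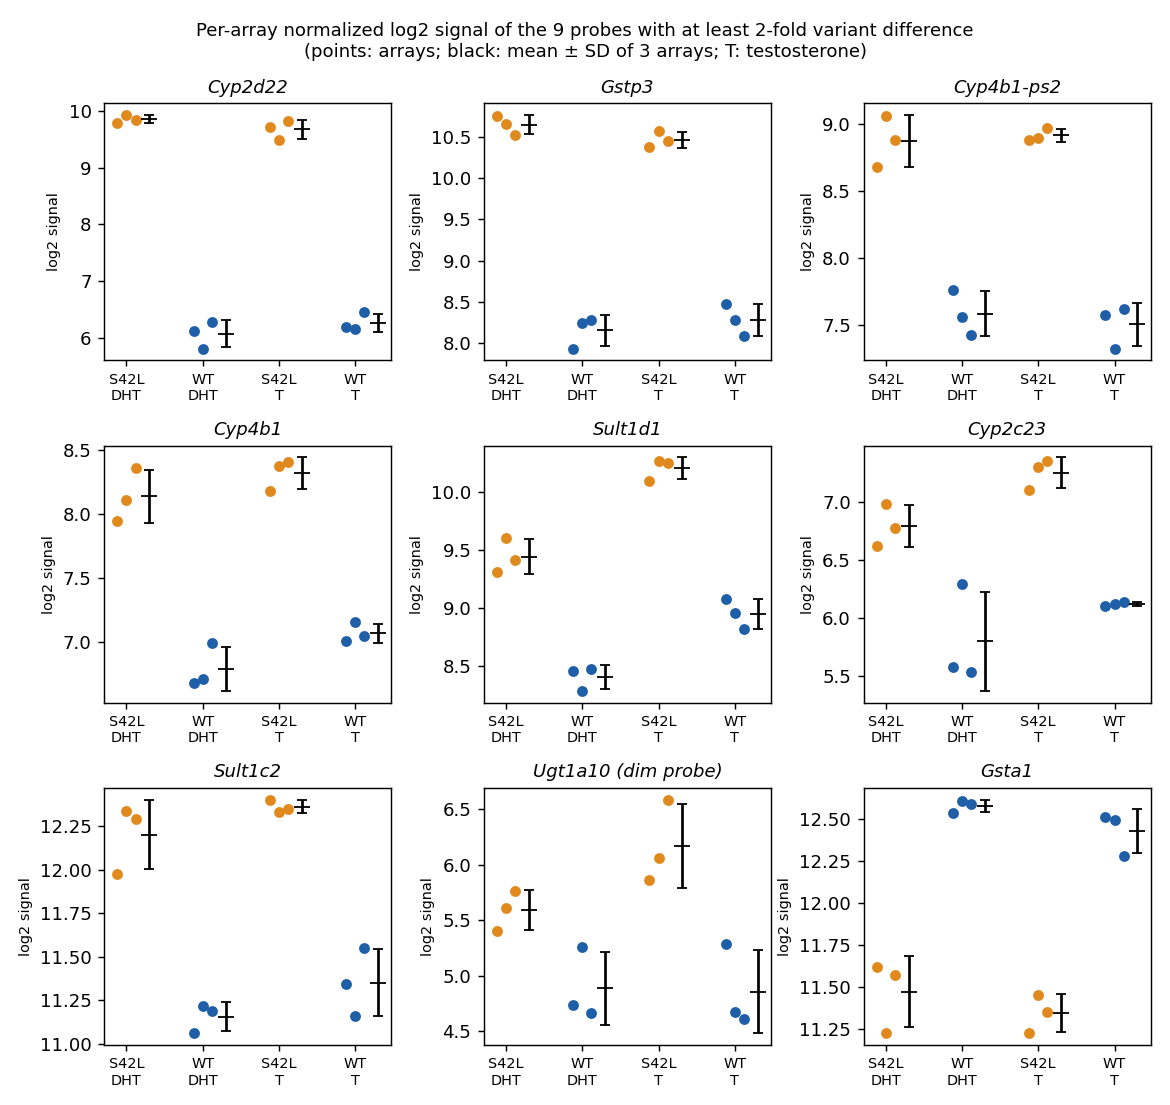
Normalized log2 signal on each of 12 arrays for the 9 member probes with a called variant difference of 2-fold or more, each panel with its own vertical axis that does not start at 0, and with black bars for the mean ± SD of 3 arrays. In 8 panels the S42L points are above the wild-type points, and for Gsta1 they are below. The dim Ugt1a10 probe was detected on 2 of 6 wild-type arrays.

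Taken separately, each androgen gave the variant difference the same sign in nearly all members. Under DHT 37 of 68 member probes (54.4%) were called, 10 higher and 27 lower, against 22.9% of all tested probes (11.3% higher and 11.7% lower). Under testosterone 40 (58.8%) were called, 11 higher and 29 lower, against 23.8% (11.5% higher and 12.3% lower). With median scaling the testosterone split became 5 higher and 36 lower. The probes called under both androgens were 31, all with the same sign in both, where 16.4% of all tested probes were called under both. The differences had the same sign in 66 of 68 probes, with a correlation across probes of 0.94 (Pearson) and 0.90 (Spearman), given as a description because the androgens share the same clones and chip positions. The exceptions in sign were Cyp2d26 and a Gstm6 probe, neither called under either androgen. The interaction between variant and androgen called 0 member probes with limma (background 0.00513%, 1 of all probes), with 6 at an unadjusted p under 0.05. The median half-width of its 95% interval was 0.43, so a smaller dependence on the androgen could not be resolved.

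**Figure D4:**
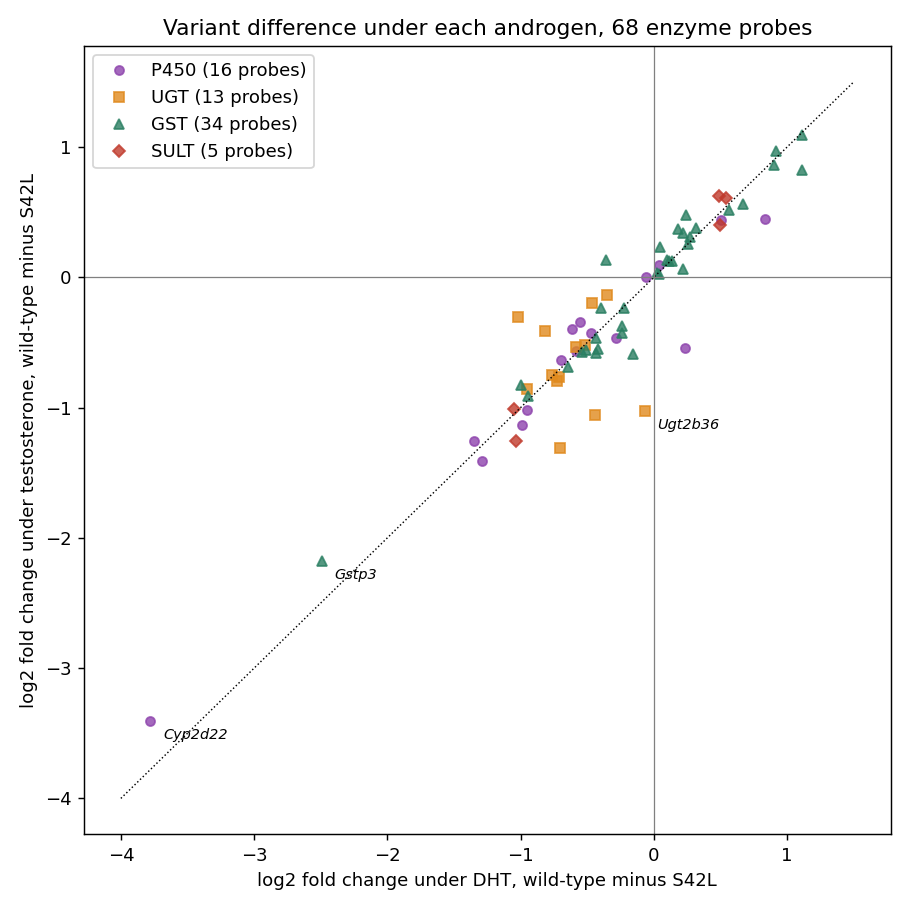
Log2 difference of each of 68 member probes, wild type minus S42L, under DHT (horizontal) and testosterone (vertical), with the dotted line for equal differences. Most probes follow the line, Cyp2d22 and Gstp3 are at the lower left, and Ugt2b36 is near 0 under DHT and at -1.02 under testosterone.

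Between the androgens within a line, 1 enzyme passed the test, in S42L cells. In wild-type cells DHT minus testosterone called 0 of 68 member probes with limma, against 0.0719% of all tested probes (14 probes, 0.0205% higher and 0.0513% lower), and 7 members had an unadjusted p under 0.05. In S42L cells it called 1 member (1.47%), against 0.267% of all tested probes (52 probes, 0.0411% higher and 0.226% lower), and 17 had an unadjusted p under 0.05. The called probe was Sult1d1, lower with DHT (-0.76 ± 0.11, adjusted p = 0.0272), and its value in wild-type cells was -0.54 ± 0.11 (adjusted p = 0.117). The interaction for Sult1d1 was 0.22 with a 95% interval of -0.13 to 0.57. The Sult1d1 call had an adjusted p of 0.0605 to 0.122 when any of the 6 S42L arrays was left out, and 0.00338 to 0.122 over all alternatives. Just outside the threshold in S42L cells were Ugt2b36 (-0.88 ± 0.17, adjusted p = 0.0585) and Gsta4 (0.47 ± 0.10, adjusted p = 0.0739). Cyp2d26, also not called (adjusted p = 0.0701), was detected on 0 of 3 S42L arrays with DHT and 3 of 3 with testosterone, with a bound of at least 1.473-fold lower with DHT. Every array that detected Cyp2d26 was a testosterone array. It passed the detection rule only through them, so its value adds no support. Chip and androgen cannot be told apart for any of these values.

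Genes that regulate and supply these enzymes were called at shares to be read against 37.8% of all tested probes (19.2% higher and 18.6% lower). The lists of regulators, P450 partners and cosubstrate genes, with 2 of 5, 1 of 7 and 5 of 10 tested genes called, are too short for their shares to be a result about the lists. Among sensors and transcription factors 5 of 13 were tested, and Nfe2l2, which encodes NRF2, was higher in wild-type cells by 0.35 ± 0.08 (adjusted p = 0.00436), whereas Hnf4a, a factor of proximal tubule and liver, was lower (-0.59 ± 0.09, adjusted p = 0.000187). Arnt, Rxra and Keap1 were not called. The receptors Ahr, Nr1i2, Nr1i3, Nr3c1 and Ppara were detected on 0 to 2 arrays and not tested. Of 7 tested P450 partners and heme enzymes only Cyb5r1 was called (0.69 ± 0.10, adjusted p = 0.000232, higher). Of 10 tested genes for cosubstrates 5 were called, with 4 higher and 1 lower. Slc35d1, among the higher ones, was detected on 5 wild-type arrays and 1 S42L array and passed detection only through wild-type cells. Cth, which makes cysteine for glutathione, was higher by 2.07 ± 0.10 (adjusted p = 1.44e-08), and Gss, glutathione synthetase, by 0.53 ± 0.08 (adjusted p = 0.000212). Another tested Gss probe did not share that call. Papss2, which makes the sulfate donor used by SULTs, was lower at -0.74 ± 0.10 (adjusted p = 7.7e-05).

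Other xenobiotic enzymes outside the symbol rule were called higher in 4 and lower in 6 of 14 tested genes. Of all tested probes 37.8% were called, 19.2% higher and 18.6% lower. The list is short, and its share was not tested. Its median was -0.05, against 0.02 over all tested probes. Fmo2, among the higher ones, was detected on 3 wild-type arrays and 1 S42L array, so its call (adjusted p = 0.0365) adds little. The quinone reductase Nqo1, a known NRF2 target, was higher by 0.96 ± 0.08 (adjusted p = 3.53e-06) and the microsomal GST Mgst2 by 0.74 ± 0.09 (adjusted p = 4.48e-05). The flavin monooxygenase Fmo1 was lower, at -1.20 ± 0.15 (adjusted p = 4.87e-05), and so was Mgst1, at -0.75 ± 0.07 (adjusted p = 3.34e-06). Tpmt, which methylates thiopurines, was lower at -0.64 ± 0.08 (adjusted p = 3.47e-05).

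Some markers of cell type also differed between the lines, as did 37.8% of all tested probes (19.2% higher and 18.6% lower). These lists are too short for their shares to be a result about the lists. Of 15 proximal tubule markers on the array 8 were tested, with 6 lower in wild-type cells and 2 not called. Detected on no array were 6 of 15, among them Cubn, Slc34a1, Slc22a6 and Kap. Anpep, among the lower ones, was detected on 2 wild-type arrays and 6 S42L arrays. Anpep passed the detection rule only through S42L cells, so its call adds no support. The proximal tubule list holds Cyp4b1, a member, and Hnf4a. Its summed signal was 4596.3 to 5566.2 in S42L cells and 2755.1 to 2821.5 in wild-type cells with DHT, and 6543.9 to 6746.8 and 3151.7 to 3824.2 with testosterone. Among its genes the peptidase Mme (-1.32 ± 0.10, adjusted p = 1.48e-06) and the water channel Aqp1 (-1.18 ± 0.11, adjusted p = 4.16e-06) were lower. Another tested Mme probe did not share that call. None of 8 hepatocyte markers passed detection, with summed signals of 185.3 to 210.5 over all arrays. The fibroblast list summed to 1569.7 to 2515.3 in S42L cells and 214.1 to 258 in wild-type cells, which rested on Dcn (-4.79 ± 0.10, adjusted p = 2.08e-11), while Lum, Pdgfra and Thy1 were detected on no array. The distal nephron list summed to 1378.8 to 1698 in S42L cells and 1188.4 to 1478.2 in wild-type cells, and of 5 tested markers Umod and the sodium channel subunit Scnn1a were lower. Scnn1a was detected on 6 S42L arrays and 1 wild-type array and was at least 5.70-fold lower in wild-type cells. Umod was detected on 4 S42L arrays and 0 wild-type arrays and was at least 1.24-fold lower in wild-type cells. Both passed the detection rule only through S42L cells, so their calls add no support. The endothelial list summed to 1065.8 to 1301.8 in S42L cells and 502.4 to 780.4 in wild-type cells, with Tie1 detected on no array. Egfl7 was lower by its brightest probe (-1.09 ± 0.11, adjusted p = 1.04e-05), and another tested Egfl7 probe did not share that call. Kdr was higher near the threshold (adjusted p = 0.0476). It was detected on 4 wild-type arrays and 1 S42L array and was at least 1.25-fold higher in wild-type cells. Kdr passed detection only through wild-type cells, so its call adds no support. The immune list summed to 680.4 to 961.7 and 387.2 to 508.3, with Csf1r lower (-0.99 ± 0.10, adjusted p = 1.23e-05) and Ptprc, Itgam and Cd3e detected on no array. In such bulk RNA fewer expressing cells and less RNA per cell cannot be told apart, and the part of these markers in the enzyme differences was not tested.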

How the data were processed

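Total RNA of 12 samples in 4 groups of 3 was measured on bead arrays read with BeadStudio, per the submitters' processing notes. The deposited table gives 1 intensity per probe and array, not normalized, with a detection p-value, per the file headers. A deposited table of the authors' processed intensity values (lowest -30.1, medians 6.8 to 6.9, scale and centring not stated) ranked probes as the matching array did, and served as an alternative after adding 46.1. Here intensities were corrected with normexp from the detection p-values, offset by 16, quantile-normalized and log2-transformed (neqc steps of limma 3.58.1, R 4.3.3), without control beads. Probes detected at p under 0.05 on at least 3 arrays were tested in a 4-group limma model with 6 contrasts. The code was tested on simulated data. Probe symbols came from the platform annotation, with 1 symbol for 34885 probes, several for 18 and none for 10378, and all 202 member symbols were current. A gene with several probes is represented by its brightest. Any detected member gene could be named, with listed liver and kidney enzymes. Per-array values were printed for most members called at 2-fold or more and for the brightest of some families. Further genes with such values, among them Gsta2, Ugt1a6a and Ugt2b36, were chosen freely. Gsta3 and Cyp4f16, the brightest of the Gsta and Cyp4 families, were left without them. Members, lists and naming rules were chosen with earlier results of these data known. Replicate numbers did not pair samples: deviations of 18 same-numbered pairs correlated at -0.047 to 0.121, those of 36 others at -0.132 to 0.11. The number of arrays limits the precision. Alternatives were another normalization, offset, detection filters (one by line, chosen after seeing the data), the authors' values, a replicate block, averaging the tested probes of a gene, and leaving out each array.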

Additional observations from a re-analysis of the deposited data

How the results depend on the processing

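The counts of called member probes over both androgens (47 to 53), under DHT (30 to 41) and under testosterone (32 to 41) stayed within 1.5 times the reported counts in every alternative, and those between androgens in wild-type cells and for the interaction stayed at 0. The count between androgens in S42L cells moved from 1 to 4 with median scaling, with an offset of 50 and with the authors' processed values, to 2 when detection on all 3 arrays of a group was required, to 2 when detection on 3 or more arrays of each line was required (an alternative chosen after seeing the data), and to 0 with a replicate block. Leaving out each array gave 0 to 4, with 0 without any of the 6 S42L arrays, and the cause was not tested. Among all probes, median scaling shifted the variant difference by -0.124 under testosterone and -0.0913 over both androgens, and members then split 5 higher and 36 lower under testosterone (11 and 29 before). With the replicate block the counts were 51, 35 and 36 over both androgens, under DHT and under testosterone. Of 34 called genes 29 kept call and direction in every alternative, 5 lost the call in some (Cyp4a12a, Cyp4f13, Gsta3, Gstcd, Gstm1) and none reversed. Of 6 uncalled genes, Cyp2d26 was called without wild-type testosterone replicate 1 (adjusted p = 0.0372). That array was the only wild-type one to detect Cyp2d26, so this call adds no support. Sign changes occurred only in uncalled genes, for Cyp2c65 (-0.0155 without wild-type DHT replicate 3, range over left-out arrays -0.0155 to 0.1494), Gstp1 (-0.0069 without S42L DHT replicate 2, range -0.0069 to 0.0483) and Gstt3 (-0.0149 with median scaling).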

Other observations

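Of 5 tested P450 genes outside the drug-metabolizing families 2 were higher and 1 lower in wild-type cells. Of all tested probes 37.8% were called (19.2% higher and 18.6% lower), and this list is too short for its share to be a result. Cyp24a1, which inactivates vitamin D in proximal tubule, was higher by 1.34 ± 0.16 (adjusted p = 4.33e-05). It was detected on 6 wild-type arrays but 2 of 6 S42L arrays, so that value rests on S42L signals mostly not above background. Cyp24a1 passed the detection rule only through wild-type cells, so its call adds no support. Cyp51, a demethylase of cholesterol synthesis, was higher by 0.53 ± 0.11 (adjusted p = 0.00165), and Cyp39a1, an oxysterol hydroxylase, was lower (-0.42 ± 0.11, adjusted p = 0.00882). Cyp11a1 and Cyp20a1 were not called.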
